A study of Mus musculus with 10 samples.

Results

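The genes described here encode the constitutive proteasome, the protein-degrading complex of every cell. They were taken by symbol: Psma, Psmb, Psmc, Psmd, Psme, Psmf or Psmg followed by a digit, without the interferon-inducible immunoproteasome subunits Psmb8, Psmb9 and Psmb10 and the PA28 subunits Psme1 and Psme2. Of 18193 genes with a probe set annotated to a single symbol, 45 met this rule, and for each the brightest probe set on average over 10 arrays was used. The rule used no test, but the mean runs over both strains, so a probe set dim in 1 strain ranks lower. For Psmd6 the probe set left out was the brighter one in B6 (mean 9.49 against 9.21). In all, 42 of them passed the filter on dim probe sets, as did 11061 genes of the whole series. The 3 that did not were Psma8, a 20S subunit of testis (mean log2 signal 3.30 over 10 arrays), Psmb11, the 20S subunit of thymic epithelium (3.08), and Psmc3ip, a meiotic recombination factor (3.33). Psmc3ip and Psme3ip1, a binding partner of Psme3, met the rule by prefix alone and are not subunits.

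RNA came from the livers of female inbred mice, either C57BL/6J, written B6 here, or DBA/2J, written D2. The mice had eaten a high-fat, high-cholesterol diet for 0, 1, 4, 12 or 21 weeks. RNA of 5 mice was pooled in equal amounts per strain and week, and 1 Affymetrix Mouse Genome 430 2.0 array was hybridised with each pool. The groups were therefore B6 at week 0 (1 array), B6 fed (4 arrays, at weeks 1, 4, 12 and 21), D2 at week 0 (1 array) and D2 fed (4 arrays, at the same weeks). No mice kept on another diet for the same time were analysed here, so weeks on the diet and age cannot be told apart. With 1 pool per strain and week, the weeks stand in for replicates in each test. In the strain fit, which has week as a block, the p-values measure how the gap between the strains varies over the weeks. In the diet fits they measure the spread between pools of different weeks, and in the slope fit the scatter about the slope.

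The proteasome degrades proteins that carry ubiquitin chains. Its 20S core is a barrel of alpha rings, which gate the entry, and beta rings, of which Psmb5, Psmb6 and Psmb7 carry the peptidase sites. The 19S particle caps the barrel: its base holds a ring of ATPases (Psmc genes) that unfold the substrate, and its lid holds the deubiquitinase Psmd14. Dedicated chaperones assemble core and cap, and inflammatory signals exchange the catalytic subunits for immunoproteasome subunits. The transcription factor NRF1 (gene Nfe2l1) raises proteasome genes together when proteasome capacity falls short, and in liver it is also tied to cholesterol and lipid handling.

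Values below are log2 signals after quantile normalisation, with a pseudocount of 1.05, and differences are on the same scale. The 2% trimmed mean of the deposited signal ranged from 55.8 (B6 week 0) to 88.7 (B6 week 1) and was lowest on both week 0 arrays. The log2 ratio of the 3' to the 5' actin control was 0.83 to 1.27 in B6 and 1.09 to 1.24 in D2. The summed signal of 10 hepatocyte markers was 58431 to 62645 in B6 and 57240 to 60321 in D2, and all 10 passed the filter. That of 14 macrophage and Kupffer cell markers, of which 12 passed the filter, ran from 2649 to 15220 in B6, where it was highest at week 4, and from 2457 to 3677 in D2. In whole liver, fewer cells of a type and less RNA per cell cannot be told apart. Quantile normalisation holds the brightest probe sets nearly fixed: the hepatocyte marker Apoa1 read 13.16 on all 10 arrays. The narrow range of the hepatocyte sums therefore says little about hepatocyte content.

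The SD of the proteasome genes over the 10 arrays had a median of 0.17 (range 0.10 to 0.49), against 0.28 for all genes kept. Because bright probe sets vary less, the same was taken for genes with a mean log2 signal of at least 9: the median SD was 0.15 for the 25 proteasome genes and 0.20 for the 1435 genes at that level. Psmc4, an ATPase of the 19S base, had the widest SD (0.49), and Psma6, an alpha ring subunit, the narrowest (0.10).

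**Figure D1:**
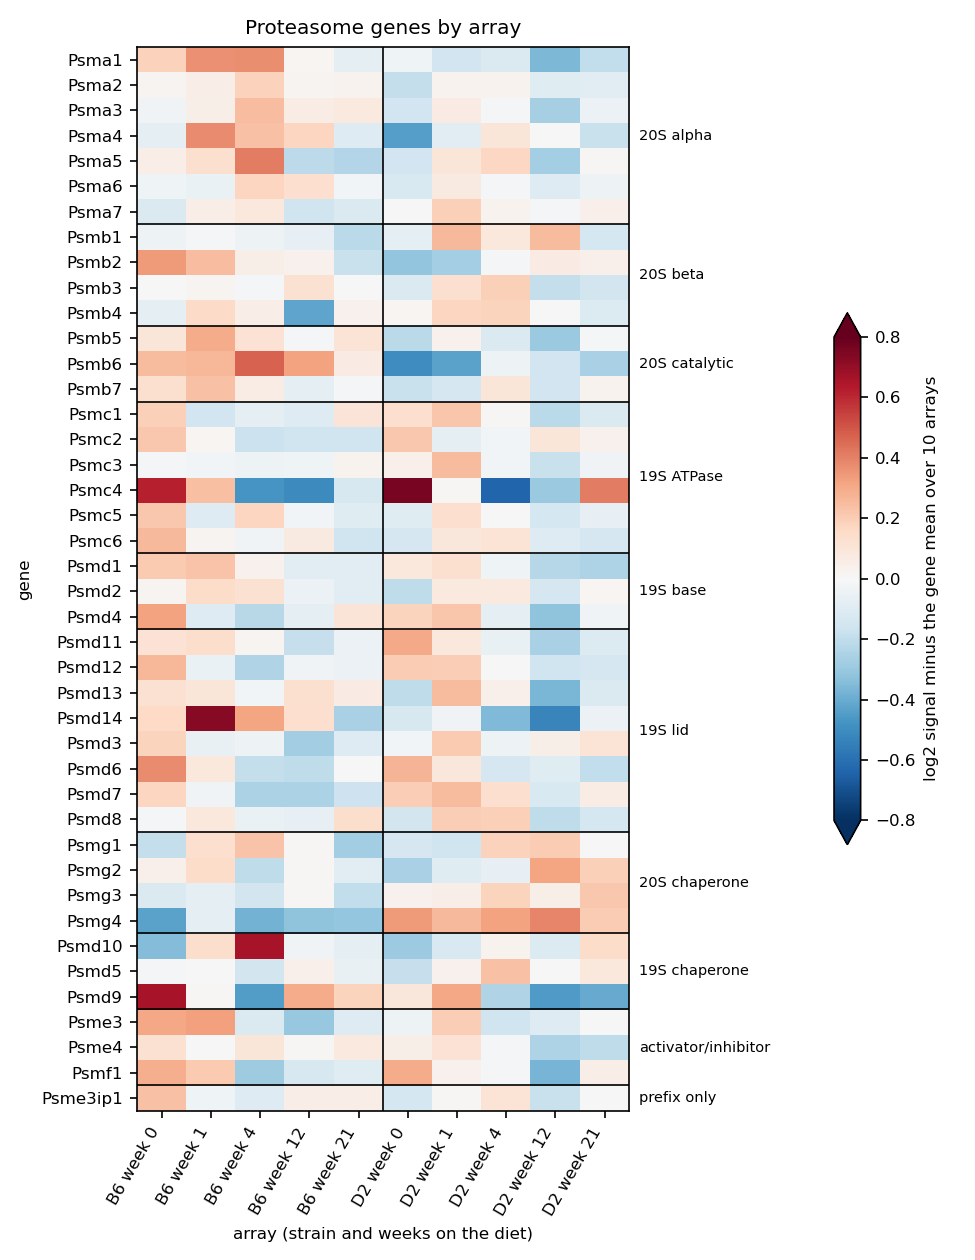
Log2 signal of the 42 proteasome genes that passed the filter (rows, grouped by role) on each of the 10 arrays (columns), as the difference from the gene's own mean over the arrays; red is above and blue below that mean, and colours saturate at 0.8. Psmb6 is above its mean on all 5 B6 arrays and Psmg4 on all 5 D2 arrays, whereas Psmc4 is highest on both week 0 arrays.

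The comparison of the strains asked which proteasome genes differ between B6 and D2 liver over all weeks. Psmb6, the caspase-like catalytic subunit of the core, was lower in D2, and Psmg4, a chaperone that helps build the alpha ring, was higher in D2. The other 40 genes did not pass the test. Thus 2 of 42 were called (1 higher, 1 lower), where 7.98% of all genes tested were called (3.91% higher and 4.08% lower). At an unadjusted p under 0.05 stood 7 of the 42, against 24% of all genes. The median difference was −0.05 over the 42 genes, 16 above and 26 below 0, and 0.01 over all genes.

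Psmb6 stood at 9.47, 9.48, 9.69, 9.54 and 9.28 in B6 at weeks 0, 1, 4, 12 and 21, and at 8.72, 8.79, 9.18, 9.07 and 8.96 in D2. The lowest B6 array lay above the highest D2 array, so the strains did not overlap. The B6 mean was 9.49 ± 0.15 and the D2 mean 8.94 ± 0.19 (SD, n = 5 arrays per strain). The difference was −0.55 ± 0.09 (SE), 1.46-fold lower in D2 at 5 of 5 weeks, with an adjusted p of 0.00918 in limma with week as a block. By week the gap was −0.75, −0.69, −0.51, −0.47 and −0.32. As the authors deposited them, without scaling, the signals were 539, 838, 890, 768 and 662 in B6 and 318, 404, 561, 602 and 552 in D2, lower in D2 at every week, although the ranges of the strains then overlapped. Psmb6 has 1 probe set on the array, so no other probe set bears on this difference. Whether its probes bind the transcripts of both strains equally well was not tested.

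The Psmg4 values were 6.43, 6.79, 6.48, 6.53 and 6.55 in B6 and 7.20, 7.12, 7.18, 7.25 and 7.06 in D2. Here every D2 array lay above every B6 array after quantile normalisation. The means were 6.56 ± 0.14 and 7.16 ± 0.07 (SD, n = 5 arrays each), and D2 exceeded B6 by 0.61 ± 0.11 (SE), 1.52-fold, at 5 of 5 weeks (adjusted p = 0.0138). This call was lost without the B6 or D2 array of week 12 (adjusted p = 0.0568 and 0.0577) or of week 21 (0.0506 and 0.0519), and with the values as deposited (0.52, adjusted p = 0.115). With week as a block, either array left out removes that week's pair, so the paired runs of a week are not separate checks. The Psmg4 signals as deposited were 61, 133, 107, 89 and 98 in B6 and 107, 129, 138, 164 and 150 in D2. On that scale the strain ranges overlapped, and D2 lay below B6 at week 1. A further Psmg4 probe set was below the filter (mean log2 signal 1.55), and with the mean of both sets the difference was 0.62 (adjusted p = 0.0821).

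The DNA upstream of these genes is shown because Psmb6 carries, directly before its start, the TGACNNNGC core of the antioxidant response element that NRF1 and NRF2 bind with small Maf proteins, and Psmg4 does not. The sequences are from RefSeq (build GRCm38.p6), which is the C57BL/6J sequence, and the DBA/2J sequence was not analysed here. They give 250 bases that end at the base before the transcription start, with motif matches in capitals. The Psmb6 stretch is chr11:70525107-70525356 (plus strand), with the match from −9 to −1 relative to the start. The Psmg4 stretch is chr13:34162714-34162963 (plus strand), with no match to TGACNNNGC or CCAAT on either strand.
Psmb6: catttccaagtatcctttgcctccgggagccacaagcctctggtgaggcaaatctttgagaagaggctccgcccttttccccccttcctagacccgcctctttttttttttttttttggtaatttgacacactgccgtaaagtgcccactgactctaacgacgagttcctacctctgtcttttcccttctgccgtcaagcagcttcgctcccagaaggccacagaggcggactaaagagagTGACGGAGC
Psmg4: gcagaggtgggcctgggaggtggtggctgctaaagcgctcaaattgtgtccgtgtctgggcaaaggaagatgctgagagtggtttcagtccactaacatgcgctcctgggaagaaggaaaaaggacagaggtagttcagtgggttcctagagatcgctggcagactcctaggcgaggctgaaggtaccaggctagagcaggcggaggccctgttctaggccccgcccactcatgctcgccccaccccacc

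Over windows from 250 bases before to 50 after the start, searched on both strands, TGACNNNGC was found in 6 of the 37 proteasome genes that the RefSeq promoter table holds (16.2%) and in 14.0% of its 27025 genes. CCAAT, the box bound by NF-Y, was in 15 of 37 (40.5%) and in 41.1% of all genes. These shares are close to the background, and a match describes letters, not a bound site. The other genes with TGACNNNGC are Psmb5, Psmc6, Psmd9, Psmd12 and Psme4, none of which was called between the strains. A link of the motif to the strain differences was not tested. The windows of Psmb5, the chymotrypsin-like catalytic subunit (chr14:54618024-54618053, minus strand), and of Psmd9, a chaperone of the 19S base (chr5:123228148-123228177, plus strand), are given as the matches nearest to the start with the motif in the same orientation as in Psmb6.
Psmb5: acgtgaagttgTGACGTCGCggcgttgcca
Psmd9: tatctagccggTGACCCCGCccacttccaa

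Among the other catalytic subunits, Psmb5 stood at 9.58, 9.79, 9.60, 9.48 and 9.59 in B6 and at 9.27, 9.52, 9.37, 9.19 and 9.48 in D2 at the 5 weeks. D2 lay lower at 5 of 5 weeks, with overlapping ranges, and the difference of −0.24 ± 0.07 did not pass (SE, adjusted p = 0.0831). Psmb7, the trypsin-like subunit, differed by −0.14 ± 0.09 (adjusted p = 0.372), with D2 lower at 3 of 5 weeks. It read 10.72, 10.82, 10.65, 10.52 and 10.58 in B6 and 10.41, 10.45, 10.68, 10.43 and 10.62 in D2, with overlapping ranges.

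Of the 14 core subunits, 11 differences lay below 0, with a median of −0.13, and 1 (Psmb6) was called. This count was also 11 with the values as deposited, with median centring and with scaling to 1 trimmed mean, and 10 with the mean of all probe sets of a gene. The alpha ring subunits among them did depend on the probe sets. With the brightest probe set 1 lay above and 6 below 0 (median −0.13), and with the mean of probe sets 4 above and 3 below (median 0.04). Psma1, an alpha ring subunit, came closest after Psmb6: B6 gave 9.65, 9.83, 9.83, 9.48 and 9.38 and D2 9.43, 9.31, 9.34, 9.10 and 9.26. D2 was lower at each week, but the highest D2 array lay above the lowest B6 array, and the difference of −0.35 ± 0.09 missed the threshold (SE, adjusted p = 0.0508). Under scaling to 1 trimmed mean it passed (−0.34, adjusted p = 0.0495), while under the other settings the adjusted p in limma reached 0.215. With 1 array left out it was 0.0755 to 0.143. The other Psma1 probe sets above the filter gave 0.24 ± 0.17 and −0.72 ± 0.22 (SE).

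The 17 subunits of the 19S particle had a median strain difference of −0.02, 7 above and 10 below 0, and none was called. Their sign balance depended on the scaling: 4 were above 0 as deposited and 9 with median centring. The widest difference was that of Psmd14, the deubiquitinase that removes ubiquitin from bound substrates. It measured 9.10, 9.67, 9.25, 9.07 and 8.68 in B6 and 8.81, 8.91, 8.59, 8.41 and 8.89 in D2, lower in D2 at every week except 21 (−0.43 ± 0.15 SE, adjusted p = 0.117). Without the B6 or the D2 array of week 21 the difference was −0.59 and passed (adjusted p = 0.0376 in both). Both runs drop the same pair of arrays from the strain difference, so they are not separate checks. Psmd7, the lid protein that pairs with Psmd14, differed the other way, by 0.21 ± 0.09 at 5 of 5 weeks (adjusted p = 0.205).

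All 4 chaperones of the 20S core had differences above 0, with a median of 0.13, while only Psmg4 was called. With the values as deposited 2 of the 4 lay above 0. Psmg3, which pairs with Psmg4, stood at 7.08, 7.12, 7.05, 7.21 and 7.003 in B6 and at 7.23, 7.25, 7.38, 7.25 and 7.42 in D2. Every D2 array exceeded every B6 array, yet the difference of 0.21 ± 0.10 did not pass (SE, adjusted p = 0.236). As deposited the Psmg3 ranges of the strains overlapped, and D2 lay below B6 at week 1 (141 against 167). Psmg1 and Psmg2, which form the other chaperone pair, differed by 0.04 ± 0.10 and 0.03 ± 0.13, with adjusted p-values of 0.859 and 0.905.

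**Figure D2:**
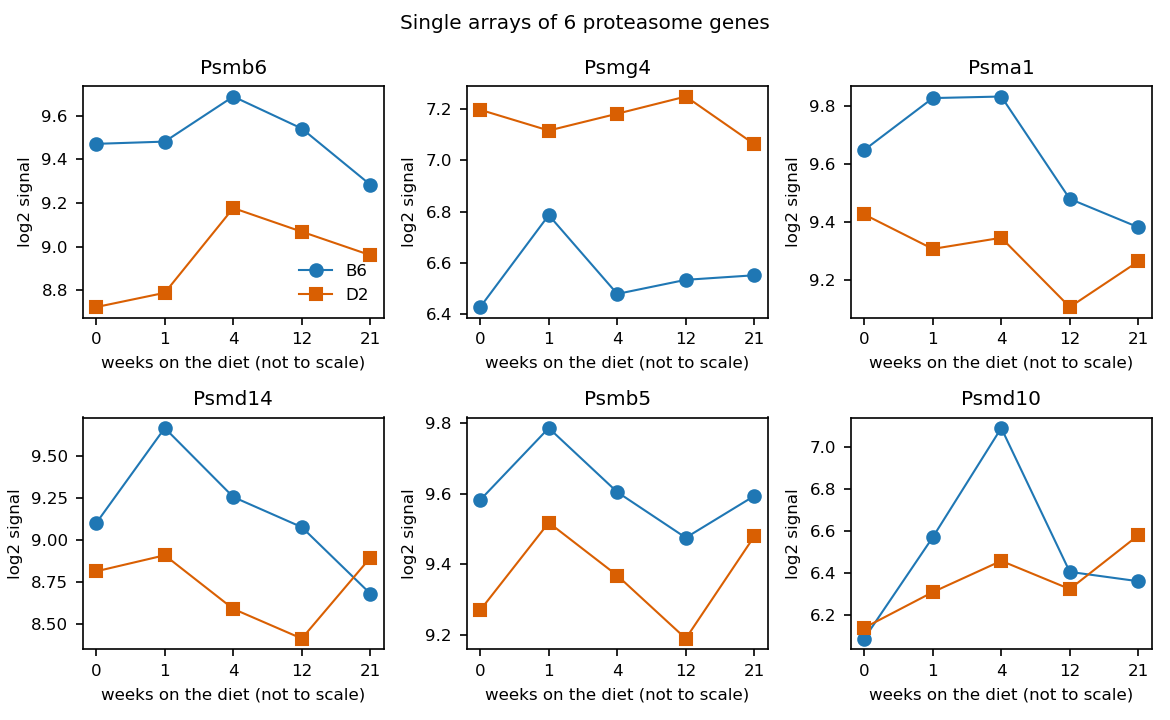
Log2 signal on each array of 6 proteasome genes against weeks on the diet, with B6 as blue circles and D2 as orange squares, 1 array per point. The strains are apart at every week for Psmb6 and Psmg4, D2 is lower at each week for Psma1 and Psmb5, the strains cross at week 21 for Psmd14, and Psmd10 peaks at 7.09 on the B6 week 4 array.

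The activators and the inhibitor did not pass. Psme4, the large activator PA200, read 10.01, 9.88, 9.98, 9.89 and 9.96 in B6 and 9.93, 10.001, 9.87, 9.64 and 9.68 in D2, with overlapping ranges (difference −0.12 ± 0.08 SE, adjusted p = 0.416). Psme3, the nuclear activator PA28 gamma, read 7.59, 7.601, 7.16, 6.97 and 7.17 in B6 and 7.24, 7.47, 7.12, 7.17 and 7.28 in D2, also overlapping. It differed by −0.04 ± 0.11, and Psmf1, the inhibitor protein PI31, by 0.00 ± 0.11. The 95% intervals of the 42 strain differences reached a median of 0.21 to either side, and all 42 lay within 1 of 0 on the log2 scale, which is a 2-fold difference. Markers of other liver cells also differed by strain. Of all genes tested, 4.08% were called lower in D2 and 24% had an unadjusted p under 0.05. Of 11 stellate cell and matrix markers 4 were lower in D2 and 10 differences lay below 0 (median −0.60), with a summed signal of 2496 to 4663 in B6 and 1963 to 2499 in D2. Of 12 macrophage markers 2 were lower in D2 and all 12 differences lay below 0 (median −1.01). Of 5 lymphocyte markers and of 10 endothelial markers 1 each was lower in D2, with medians of −0.39 and −0.03. None of 5 blood cell markers was called in limma (0 also at an unadjusted p under 0.05), with a median of −0.33. The 10 hepatocyte markers had a median of −0.02 with 0 called (0 also at an unadjusted p under 0.05). Most of them are among the brightest probe sets, which the normalisation holds nearly fixed. The less bright Tat gave the widest difference of the 10 (−0.30). The part of cell mixture in the proteasome differences was not tested.

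Probe sets of the same gene did not always give the same strain difference. Psmd6, a 19S lid subunit, is the widest case. The Psmd6 probe set used here ran between 8.99 and 9.57 in B6 and between 8.997 and 9.46 in D2 (−0.03 ± 0.08 SE, adjusted p = 0.882). The other Psmd6 probe set read 9.78, 9.40, 9.27, 9.41 and 9.58 in B6 but 7.05, 5.79, 4.76, 5.03 and 5.30 in D2. Its lowest B6 array lay above its highest D2 array, and in a fit over every probe set, added after the values were seen, the difference was −3.90 ± 0.24 (SE, adjusted p = 6.91e-05). In that fit 6.83% of 22518 probe sets and 3 of 76 proteasome probe sets were called, the others being those of Psmb6 and Psmg4. Of 20 proteasome genes with several probe sets above the filter, 5 had the same sign of strain difference in all of them. Which Psmd6 probe set follows the amount of transcript was not tested, nor was the match of the Psmb6 and Psmg4 probes to the D2 sequence.

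The diet comparison asked how proteasome genes stood on the 8 fed arrays against the 2 week 0 arrays. None of the 42 genes passed the test, where 0.651% of all genes tested did (limma, Benjamini-Hochberg). At an unadjusted p under 0.05 stood 8 of the 42, against 17.5% of all genes. The median change was 0.01, with 21 genes above and 21 below 0, and 0.01 over all genes. The 95% intervals reached a median of 0.27 to either side, and 41 of 42 lay within 1 of 0, the exception being Psmc4. These statements hold relative to the other genes of each array: in the values as deposited, the median of all genes lay 0.52 higher on the fed arrays, 44.7% of genes were called as raised, and 26 of the 42 proteasome genes with them (median 0.47). On that scale 41 of the 42 changes from the fit over both strains lay above 0, the exception being Psmc4, so the other changes of that fit given below 0 here have the other sign as deposited.

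**Figure D3:**
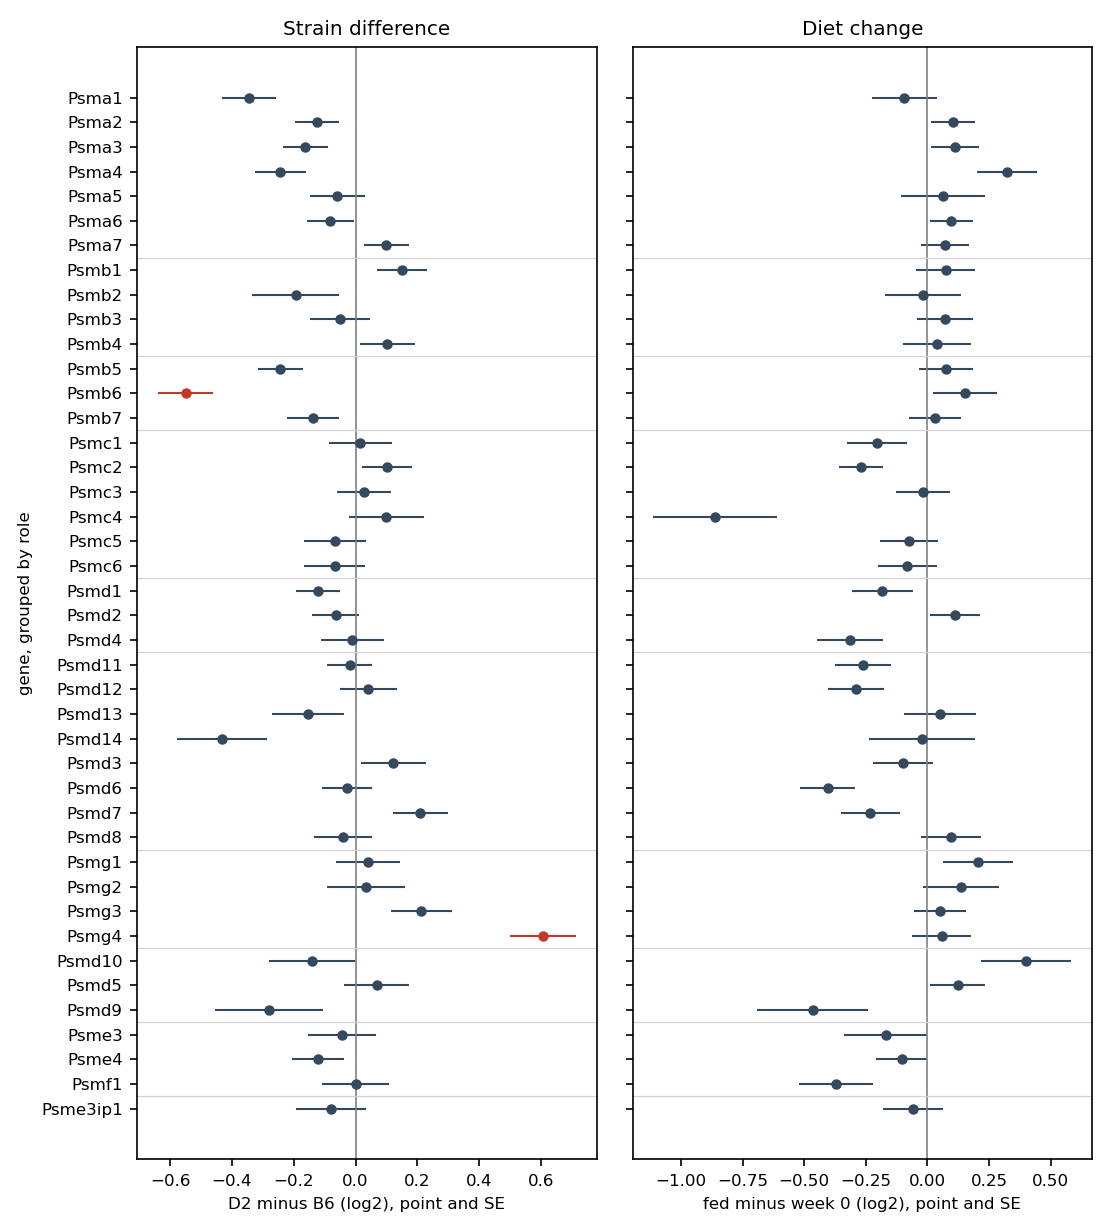
Fitted differences of the 42 proteasome genes, grouped by role, as points with SE bars: D2 minus B6 on the left and fed minus week 0 on the right, both on the log2 scale after quantile normalisation. Psmb6 (−0.55) and Psmg4 (0.61), in red, passed the test in the strain comparison, and no gene passed it in the diet comparison, where 41 of 42 changes lie above 0 with the values as deposited.

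The ATPases of the 19S base gave the largest value. Psmc4 stood at 9.45 in B6 and 9.58 in D2 at week 0, and on the fed arrays at 9.07, 8.35, 8.32 and 8.70 in B6 and 8.83, 8.19, 8.53 and 9.24 in D2. All 8 fed arrays lay below both week 0 arrays after quantile normalisation, and those of weeks 4 and 12 lay lowest. As deposited, B6 at week 1 (643 against 530) and D2 at week 21 (664 against 598) lay above their strain's week 0 array. The fitted change was −0.86 ± 0.25 and did not pass (SE, adjusted p = 0.123). The other Psmc4 probe set gave −0.13 ± 0.15, with values between 8.34 and 8.93. Psmc2 differed by −0.27 ± 0.09 (adjusted p = 0.165), below its strain's week 0 array on all 8 fed arrays. Its sign turned with the values as deposited (0.16), with the mean of its probe sets (0.06) and with its probe set that is not marked _x_at or _s_at (0.09).

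In the lid, Psmd6 read 9.57, 9.28, 8.999, 8.99 and 9.19 in B6 and 9.46, 9.28, 9.06, 9.09 and 8.997 in D2. Every fed array lay below its strain's week 0 array, with differences of −0.58 to −0.18, and the change of −0.41 ± 0.11 did not pass (SE, adjusted p = 0.106). As deposited it was 0.05. Psmd12 behaved alike in sign, with 8 of 8 fed arrays lower (−0.29 ± 0.11, adjusted p = 0.222), and 0.19 as deposited.

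Psmd11, a scaffold of the lid, stood at 10.41, 10.43, 10.31, 10.10 and 10.24 in B6 and at 10.59, 10.37, 10.23, 10.03 and 10.18 in D2. In both strains week 12 was lowest. Its change was −0.26 ± 0.11 (adjusted p = 0.267), and its 3 other probe sets above the filter gave −0.60 ± 0.18, −0.53 ± 0.13 and −0.47 ± 0.14, none of which passed. Psmd14 had no common sign, with 4 fed arrays above and 4 below week 0 (−0.02 ± 0.22). Psmd4, the ubiquitin receptor of the base, read 9.55, 9.12, 9.003, 9.14 and 9.32 in B6 and 9.40, 9.44, 9.14, 8.90 and 9.19 in D2. On 7 of 8 fed arrays it lay below week 0, the exception being D2 at week 1. The change of −0.31 ± 0.13 did not pass (adjusted p = 0.262), and the other Psmd4 probe set above the filter gave −0.36 ± 0.12.

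**Figure D4:**
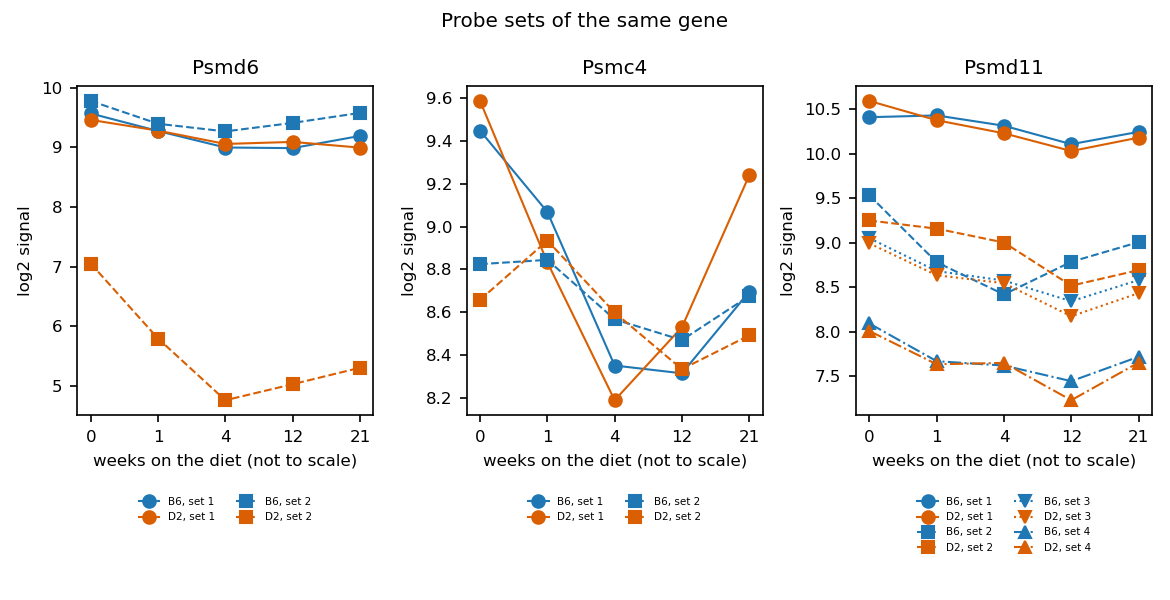
Log2 signal of each probe set above the filter for Psmd6, Psmc4 and Psmd11 against weeks on the diet, B6 in blue and D2 in orange, 1 array per point; set 1 (solid line) is the one used for the gene. The second Psmd6 set is lower in D2 (−3.90), the 2 Psmc4 sets differ in their distance from week 0, and all 4 Psmd11 sets are lower on average on the fed arrays.

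Among the core subunits, Psma4 of the alpha ring lay highest. It stood at 9.88 in B6 and 9.51 in D2 at week 0, and at 10.33, 10.19, 10.12 and 9.85 in fed B6 and 9.86, 10.05, 9.96 and 9.77 in fed D2. In 7 of 8 fed arrays it exceeded week 0, the exception being B6 at week 21, and the change of 0.32 ± 0.12 did not pass (SE, adjusted p = 0.215), while as deposited it did (0.74, adjusted p = 0.00596). The catalytic subunits differed by 0.08 ± 0.11 (Psmb5), 0.15 ± 0.13 (Psmb6) and 0.03 ± 0.11 (Psmb7), none of which passed.

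Of the assembly factors, Psmd10 (gankyrin, a chaperone of the 19S base) gave the highest diet value of all 42 genes. It read 6.09, 6.57, 7.09, 6.40 and 6.36 in B6 and 6.14, 6.31, 6.46, 6.32 and 6.58 in D2. All 8 fed arrays lay above week 0, most of all B6 at week 4, but the change of 0.40 ± 0.18 did not pass (SE, adjusted p = 0.295). Psmd9, another 19S base chaperone, ran the other way, at 8.41 in B6 and 7.84 in D2 at week 0 and between 7.30 and 8.06 on the fed arrays (−0.47 ± 0.22, adjusted p = 0.314). Psmg1 differed by 0.20 ± 0.14 (adjusted p = 0.483), with 8.12, 8.44, 8.53, 8.31 and 8.03 in B6 and 8.17, 8.15, 8.49, 8.51 and 8.31 in D2, above week 0 on 6 of 8 fed arrays.

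Psmf1, the inhibitor, stood at 7.68, 7.602, 7.11, 7.27 and 7.29 in B6 and at 7.69, 7.43, 7.38, 7.02 and 7.44 in D2, with all 8 fed arrays below week 0 (−0.37 ± 0.15 SE, adjusted p = 0.240). The activators did not pass either: Psme3 differed by −0.17 ± 0.17 and Psme4 by −0.11 ± 0.10.

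By role, 12 of 14 core subunits had a diet change above 0 (median 0.07) and 14 of 17 subunits of the 19S particle had one below 0 (median −0.18), while no gene was called in either. These signs depend on the scaling and on the choice of probe set. With the mean of all probe sets of a gene, 6 core changes lay above and 8 below 0 (median −0.01), and 14 of 17 cap changes lay below 0. As deposited, 14 core and 16 cap changes lay above 0, and with scaling to 1 trimmed mean 8 core and 3 cap changes did. With median centring 13 core and 8 cap changes lay above 0. The distance between the medians is nearly free of the scale of an array. On the 8 fed arrays, the core median minus the cap median, each taken from the strain's own week 0 array, was 0.28, 0.39, 0.26 and 0.27 in B6 and 0.12, 0.31, 0.32 and 0.24 in D2 at weeks 1, 4, 12 and 21.

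The distance was above 0 on 8 of 8 fed arrays under quantile normalisation and without the probe sets marked _x_at or _s_at (0.11 to 0.37). As deposited it was also above 0 on all 8 (0.03 to 0.32). Median centring and scaling to 1 trimmed mean shift the genes of an array nearly alike. They had to repeat the deposited values (0.03 to 0.32) and are no further check. With the mean of all probe sets of a gene it was −0.04 in D2 at week 1 and 0.05 to 0.28 elsewhere. All 4 arrays of a strain share 1 week 0 array, so the 8 values are not independent, and no test was made.

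**Figure D5:**
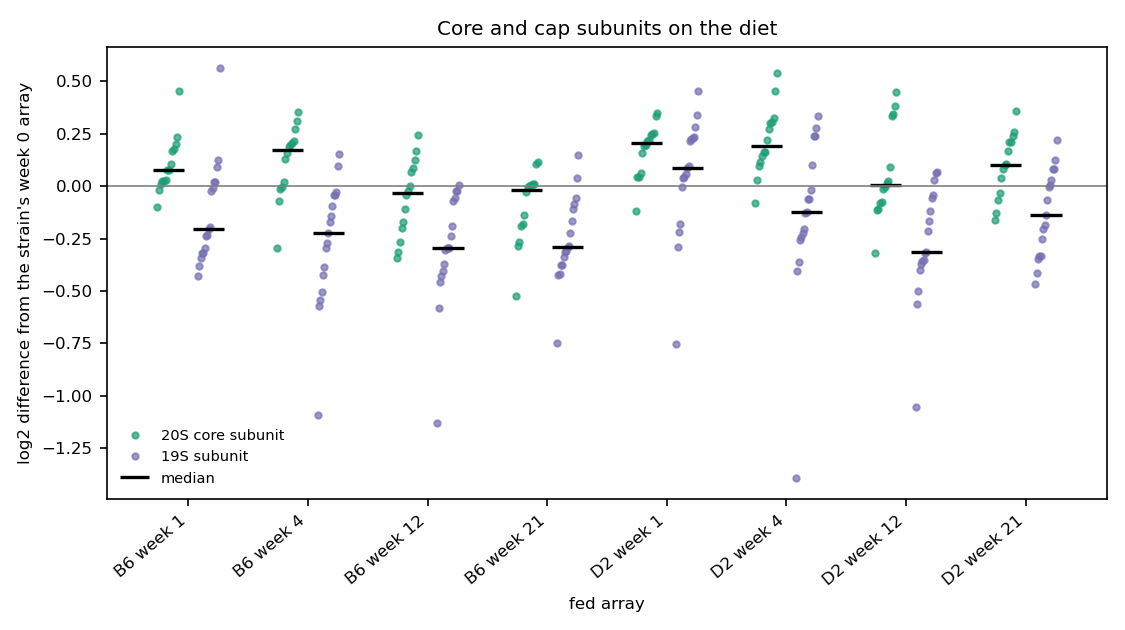
Log2 difference of each core (green, 14) and cap (purple, 17) subunit from the strain's week 0 array on each of the 8 fed arrays, after quantile normalisation, with medians as black bars. The core median lies above the cap median on every fed array, by 0.12 (D2 week 1) to 0.39 (B6 week 4), whereas with the mean of all probe sets the order turns in D2 at week 1 and as deposited nearly all values lie above 0.

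Fitted within each strain, the diet change carried a larger error. In B6 none of 42 genes was called (0.118% of all genes were) and 3 had an unadjusted p under 0.05 (12.6% of all genes). In D2 none was called (0.118% of all genes were) and 2 had an unadjusted p under 0.05 (11.5% of all genes). The lowest in B6 were Psmc4 (−0.84 ± 0.37), Psmd9 (−0.65 ± 0.32) and Psmd6 (−0.46 ± 0.16), and the highest were Psmd10 (0.52 ± 0.27), Psma4 (0.25 ± 0.18) and Psmg1 (0.21 ± 0.21). In D2 the lowest were Psmc4 (−0.89 ± 0.37), Psmd11 (−0.39 ± 0.16) and Psmf1 (−0.37 ± 0.22), and the highest were Psma4 (0.40 ± 0.18), Psmg2 (0.34 ± 0.21) and Psmd10 (0.28 ± 0.27). The SEs assume that the single week 0 array of a strain varies like its fed arrays. By array, the median of the 42 genes stood 0.02, −0.04, −0.14 and −0.15 from week 0 in B6 and 0.16, 0.11, −0.06 and 0.03 in D2 at weeks 1, 4, 12 and 21.

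The difference of the diet change between the strains was tested as an interaction. No proteasome gene was called (0.00904% of all genes, 1 gene, was) and none had an unadjusted p under 0.05 (6.09% of all genes). Psmb2, a beta ring subunit without a peptidase site, lay farthest from 0. In B6 it stood at 8.65, 8.55, 8.35, 8.34 and 8.12, in D2 at 7.99, 8.03, 8.29, 8.37 and 8.35. Its 4 fed arrays lay below week 0 in B6 (−0.52 to −0.10) and above it in D2 (0.04 to 0.38), with an interaction of 0.58 ± 0.27 that did not pass (SE, adjusted p = 0.819). The opposite sides hold after quantile normalisation: as deposited, the B6 signals were 299 at week 0 and 451, 364, 322 and 291 on the fed arrays, so 3 of 4 lay above week 0. The chaperone gene Psmg2 followed (0.42 ± 0.29), then the ATPase gene Psmc6 (0.41 ± 0.21). The lowest were Psmd11 (−0.25 ± 0.22), Psmd10 (−0.24 ± 0.38) and Psmg4 (−0.20 ± 0.24).

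Over weeks 1 to 21 of feeding, no slope on log2(week) was called, among the 42 genes or among all genes tested (0%), while 3 of the 42 had an unadjusted p under 0.05 (4.73% of all genes). Slopes were below 0 for 38 of 42, with a median of −0.04 per unit of log2(week), against 0.00 over all genes. The steepest were Psmd14 (−0.12 ± 0.05 SE), Psmd1, a large scaffold of the base (−0.08 ± 0.02), and Psme3 (−0.08 ± 0.04), each with an adjusted p of 0.972. Psmd1 stood at 9.42, 9.23, 9.11 and 9.11 in fed B6 and at 9.32, 9.16, 8.96 and 8.95 in fed D2. In both strains it was lower at weeks 12 and 21 than at week 1. The highest slopes were those of Psmg2 (0.03 ± 0.04), Psmg3 (0.01 ± 0.03) and Psmb6 (0.00 ± 0.04).

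The immunoproteasome subunits, which replace the catalytic subunits in inflammation, are set beside them as the nearest comparison. Psmb9, which takes the place of Psmb6, stood at 5.86, 7.31, 8.88, 6.67 and 6.62 in B6 and at 6.46, 7.72, 7.68, 8.15 and 7.74 in D2. All 8 fed arrays lay above week 0, but the change of 1.43 ± 0.46 did not pass (SE, adjusted p = 0.150). Psmb10 and Psmb8, which replace Psmb7 and Psmb5, differed by 1.11 ± 0.30 (adjusted p = 0.101) and 0.71 ± 0.34 (adjusted p = 0.309), also above week 0 on 8 of 8 arrays, and Psme1 by 0.36 ± 0.19. None of these 4 genes was called, and 2 had an unadjusted p under 0.05. On the diet 0.651% of all genes were called, and 17.5% had an unadjusted p under 0.05. Psme2 had no probe set with a single symbol. The median of the 4 genes stood 1.10, 2.02, 0.66 and 0.56 above week 0 in B6 and 0.51, 0.84, 0.93 and 0.74 in D2. In the same arrays the median of the 12 macrophage markers stood 1.30, 3.26, 0.10 and 1.24 above week 0 in B6 and 0.41, −0.04, −0.09 and 0.51 from it in D2, and their part in the immunoproteasome values was not tested.

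Genes that work with the proteasome are counted beside the shares of all genes tested. Of these, 7.98% were called between the strains, 4.08% as lower in D2, and 0.651% on the diet. Of 10 ubiquitin and delivery genes tested, 1 was lower in D2 and none passed on the diet. That gene, Rad23b, a shuttle that brings ubiquitinated proteins to the cap, stood at 9.54, 9.37, 8.97, 9.04 and 9.09 in B6 and at 9.07, 8.78, 8.76, 8.84 and 8.62 in D2 (−0.39 ± 0.09 SE, lower at 5 of 5 weeks, adjusted p = 0.0376). The ranges of the strains overlapped. Of 8 proteasome proteins with other symbols none passed in either comparison: Pomp, the maturation protein of the core, differed by 0.17 ± 0.15 on the diet, and Usp14, a deubiquitinase of the cap, by 0.05 ± 0.17. Adrm1 had no probe set with a single symbol.

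The 6 genes of proteasome gene control that were tested did not pass either. Nfe2l1 stood at 7.87, 7.47, 7.14, 7.63 and 7.56 in B6 and at 7.55, 7.46, 7.53, 7.79 and 7.71 in D2, with differences of 0.07 ± 0.12 (strain) and −0.17 ± 0.16 (diet). NRF1 is activated by processing of the protein, which these arrays do not measure. Nfe2l2, which encodes NRF2, differed by −0.40 ± 0.12 between the strains (adjusted p = 0.0806) and by 0.43 ± 0.16 on the diet (adjusted p = 0.203). Of 10 NRF2 target enzymes, 2 were lower in D2, the glutathione transferases Gsta2 (−1.84 ± 0.34, adjusted p = 0.0165) and Gstm1 (−0.34 ± 0.08, adjusted p = 0.0494), and none passed on the diet. Among all genes tested, 4.08% were called lower in D2 and 0.651% were called on the diet.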

How the data were processed

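Liver RNA (Trizol, per the labels' protocols) of 2 mouse strains at 5 times on the diet was measured on 10 arrays. The authors deposited linear signal intensities made with GCOS, per the submitters' processing notes; its version and settings are not given in the sources used here. Of 45101 probe sets, 64 were controls and left out, 34945 had a single gene symbol, 932 several and 9160 none in the platform annotation. Symbols were updated through gene IDs from RefSeq (34741 matched).

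Intensities were quantile normalised, 1.05 (the 10th percentile of the deposited values) was added, and log2 was taken. A gene was kept where its brightest probe set had a mean above the 50th percentile of probe set means (3.74). Tests used limma 3.58.1 (lmFit, eBayes with trend) in R 4.3.3 over all 11061 genes kept, with Benjamini-Hochberg adjustment and a threshold of 0.05. The strain fit had week as a block, as the series' design has 1 pool of each strain at each week. The diet fit had strain as a term, the fits within strains and their difference came from 4 group means, and the slope on log2(week) used 8 fed arrays. The fits were tested on simulated data. Plots were made with matplotlib 3.10.9 (Python 3.11.15).

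Members and lists were chosen with earlier results of these data known. By rule, values were given for Psmb5, Psmb6, Psmb7, Psmd4, Psmd11, Psmd14, Psme3, Psme4, Psmf1 and Psmg1, for the genes called in a fit (at most 10 per fit) and for the 3 highest and 3 lowest of each fit. Of the related lists, up to 4 genes each could be named, and Psmb8, Psmb9, Psmb10, Psme1, Psme2, Nfe2l1, Pomp, Adrm1 and Usp14 always. Psma3, Psma6, Psmc2 and Psmd12 fell outside this rule and were named after their values were seen. Alternatives were another pseudocount, other scalings, no filter, other choices of probe set, eBayes without trend, other designs and each array left out in turn. The fits over every probe set and the core and cap medians under each scaling were added after seeing the data. The number of arrays limits the precision.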

Additional observations from a re-analysis of the deposited data

Results flagged for a closer look

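Psmb2 lay on opposite sides of week 0 in the strains: after quantile normalisation, all 4 fed arrays lay below week 0 in B6 and all 4 above it in D2, whereas as deposited 3 of the 4 B6 arrays lay above week 0. The difference of the changes was 0.58 on the log2 scale and did not pass the test of the difference itself (adjusted p = 0.819).

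Among 84 groups of 4 fed arrays (42 genes in 2 strains), 4 held 1 array whose gap to its neighbour filled more of the group's range than Dixon's critical value for 4 samples allows. Chance gives about 1 in 20 such groups, and the share of the range stands in parentheses. The arrays apart were those of Psmc2 in B6 at week 1 (0.936), where it was highest, Psmd12 in B6 at week 4 (0.883), where it was lowest, Psma3 in B6 at week 4 (0.837), where it was highest, and Psmf1 in D2 at week 12 (0.837), where it was lowest.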

How the results depend on the processing

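Psmb6 was lower in D2 and called under each alternative run (−0.62 to −0.50, adjusted p up to 0.0363), and without the replicate block of week it was −0.55 (adjusted p = 0.00910) and the count of strain calls stayed 2. The count of strain calls was 1 to 3 under the other settings (1 as deposited), and 1 to 2 with 1 array left out. In the strain fit with week as a block, either array left out removes that week's pair. Those runs therefore leave out 1 week at a time. As deposited, 26 genes were called on the diet (median 0.47) and 5 within B6 (median 0.44), the median within D2 was 0.48, that of the interaction 0.040 and that of the slopes −0.021. Median centring gave medians of 0.24 within D2, 0.28 for the interaction and −0.040 for the slopes. Scaling to 1 trimmed mean gave 0.16 for the interaction and −0.032 for the slopes. The mean of probe sets gave −0.017 within D2 and −0.025 for the slopes. The slopes had a median of −0.035 with a pseudocount of 16, −0.036 with no filter and −0.038 without the _x_at and _s_at probe sets. With 1 array left out, the interaction median was 0.071 to 0.14 and the slope median −0.043 to −0.030. The diet change reversed as deposited for Psmd6 (0.048), Psmc2 (0.16) and Psmd12 (0.19), and for Psmc2 also with the mean of probe sets (0.062) and without the _x_at and _s_at probe sets (0.092). As deposited, the median of all genes was 0.52. The causes were not tested.

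Over all genes, 432 were higher and 451 lower in D2, against 208 and 403 as deposited, and 386 to 715 were called with 1 array left out. On the diet 72 were called, 11 to 4990 under the other settings and 14 to 95 with 1 array left out. Within B6 and D2, 13 each were called, 0 to 1946 and 2 to 45 under the other settings. The 95% intervals of the strain differences reached 0.16 to 0.40 to either side, and 0.19 to 0.55 for the diet.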
